A study of Arabidopsis thaliana with 15 samples.

Results

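The comparison described here set bri1-5/bak1-1D seedlings of Arabidopsis thaliana against WS2 wild type, to find what was still unlike wild type in the suppressed mutant. It used 6 of the 15 arrays of the series, 3 of each genotype, taken by their labelled genotype. The study's design text calls them biological replicates, whereas the sample descriptions give every bri1-5/bak1-1D array the repeat number 1, and the numbers used below come from the titles. The bri1-5/bak1-1D line, called bak1-1D below, carries the receptor allele bri1-5 together with the dominant suppressor bak1-1D, so it differs from WS2 by both. Its parent bri1-5, measured on 3 further arrays, carries the receptor allele alone and is given beside it to show whether a difference from wild type was also seen without the suppressor. The remaining 6 arrays are those of bri1-5/bri1-1D and bri1-5/brs1-1D (called bri1-1D and brs1-1D), 3 each, which carry another dominant suppressor in bri1-5. They entered the fit, where all genotypes share 1 estimate of the spread, but not the comparisons. WS2 is the wild-type ecotype in which the alleles are held. No line with bak1-1D and an intact receptor is among the groups, and bak1-1D was labelled as 1 line.

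RNA came from whole seedlings kept for 5 days in light on plates with 1% sucrose, so organs and cell types are mixed, and fewer cells of a type cannot be told apart from less RNA per cell. Of the 22810 probe sets on the ATH1 array, 15912 had a log2 value above 4 on at least 3 of the 15 arrays and were tested, after 64 array controls were left out. Of those tested, 8661 had 1 listed gene, 314 had several and 6937 had none.

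Brassinosteroids are steroid hormones that bind the receptor kinase BRI1 at the cell surface. The bound receptor pairs with the co-receptor kinase BAK1, and the signal passes through the transcription factors BZR1 and BES1 to genes that loosen the cell wall and let cells elongate. The mutant bri1-5 has a weak receptor allele and is a dwarf, and bak1-1D was isolated as an activation-tagged line in which BAK1 is overexpressed and the dwarfism is partly suppressed. BAK1 also partners immune receptors that perceive bacterial peptides. Neither BRI1 nor BAK1 is among the genes with a named probe set, so no level is given under either name. A probe set with no listed gene may still measure them. The labels of the lines were therefore not checked on those genes by name.

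On the 6 arrays the median log2 value ran from 6.75 to 6.81. Correlations between arrays across probe sets, which are not independent replicates, were 0.993 to 0.995 within the 2 genotypes and 0.985 to 0.988 between them. Of 41 photosynthesis probe sets, 40 lay above log2 4 on all 6 arrays (median level 10.5), both root hair markers did so (5.54), and neither of 2 seed storage and oil body markers did (3.46). The 25S rRNA control stood at 7.30, 6.44 and 6.38 on the bak1-1D arrays and at 6.18, 6.27 and 6.10 on the WS2 arrays (0.52 ± 0.28, SE, adjusted p = 0.536 over the controls). Controls for bacterial and phage sequences nearly all read lower in bak1-1D than in WS2. They ranged from -0.57 ± 0.25 for DapX-5 (adjusted p = 0.536 by limma) to 0.06 ± 0.08 for TrpnX-3, the exception. In bri1-5 DapX-5 differed from WS2 by -0.35. The part of these controls in the results below was not tested.

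Most probe sets differed little between bak1-1D and WS2. Of the 15912 tested, 1595 (10%) passed an adjusted p under 0.05 in limma and are said below to be called; 777 (4.88%) were higher in bak1-1D and 818 (5.14%) lower. The median size of a called difference was 0.45 on the log2 scale, and 975 of the called differences were under 0.5. Only 74 probe sets (0.465%) were called with a change of at least 2-fold, 49 higher and 25 lower, and 35 of these had 1 listed gene (20 higher, 15 lower). The parent bri1-5, tested against the same WS2 arrays, had 2799 calls (17.6%), 1503 higher (9.45%) and 1296 lower (8.14%), 150 of them (0.943%) of at least 2-fold. The direct test of bak1-1D against bri1-5 gave 690 calls (4.34%), 468 higher (2.94%) and 222 lower (1.4%). The 3 comparisons share arrays, so their counts are given side by side and not set against each other.

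The precision of 3 arrays a group bounds what could have been missed. The median standard error of a difference was 0.10. For 15579 probe sets (97.9%) the 95% interval of the difference from WS2 lay within 1 log2 unit of 0 on either side, and for 12638 (79.4%) it lay within 0.5. Of the 1595 called probe sets, 1576 had all 3 bak1-1D values above or all below the 3 WS2 values, an arrangement seen in 31.9% of all tested probe sets. The count of calls depended on single arrays: it was 828 without WS2 replicate 2, 1049 without WS2 replicate 1, 900 without bak1-1D replicate 1, 970 without bak1-1D replicate 2 and 928 without bak1-1D replicate 3.

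**Figure D1:**
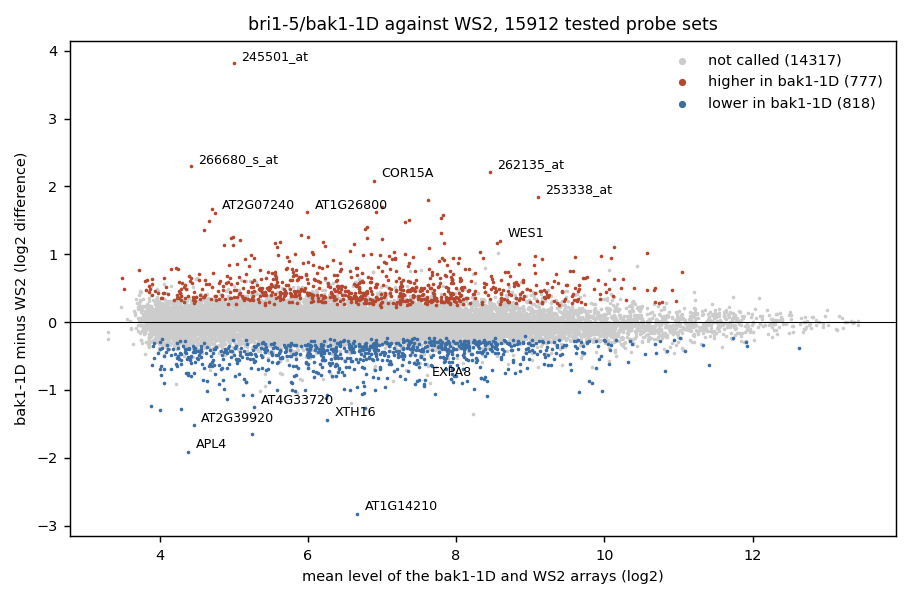
The log2 difference of bak1-1D minus WS2 (vertical axis) is plotted against the mean log2 level on the 6 arrays (horizontal axis) for the 15912 tested probe sets, with the 777 called higher in red, the 818 called lower in blue and the rest in grey. Most called points lie within 1 log2 unit of 0, and 74 lie beyond it.

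Brassinosteroid-induced genes stood below wild type in bak1-1D, by less than in bri1-5 for some and by about as much for others. Of 37 genes on the list, 8 had a named and tested probe set; 6 were called lower and 0 higher, against a background of 5.14% called lower, and 2 were not called. The median of the 8 differences was -0.59 in bak1-1D and -0.96 in bri1-5, where 7 were called lower (background 8.14%), while the median over all tested probe sets was -0.02 in bak1-1D. With 1 array left out, 4 to 6 of the 8 were called.

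EXO, an extracellular protein that promotes growth, read 8.76, 9.25 and 8.63 on the bak1-1D arrays, 7.72, 6.94 and 7.07 in bri1-5 and 9.35, 9.69 and 9.46 in WS2. The 3 groups did not overlap, and bak1-1D lay between its parent and wild type. The difference from WS2 was -0.62 ± 0.18 (adjusted p = 0.0398) in bak1-1D and -2.26 ± 0.18 in bri1-5, and bak1-1D was 1.64 ± 0.18 above bri1-5 (adjusted p = 1.86e-04). The call against WS2 was lost in 6 of the 15 fits that left out 1 array, with an adjusted p up to 0.154: those without any 1 of the WS2 arrays, bak1-1D replicates 1 or 3, or brs1-1D replicate 3.

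EXPA8, an expansin that loosens cell walls, had 7.23, 7.36 and 6.88 in bak1-1D, 6.18, 5.66 and 6.32 in bri1-5 and 7.83, 7.90 and 8.27 in WS2. Again bak1-1D lay between the other 2 groups with no overlap. It was 0.85 ± 0.18 below WS2 (difference -0.85, adjusted p = 0.00851) and 1.10 ± 0.18 above bri1-5 (adjusted p = 0.00289). XTH19, an enzyme that cuts and rejoins wall xyloglucan, read 7.40, 7.53 and 7.75 in bak1-1D, 7.00, 7.09 and 7.04 in bri1-5 and 8.14, 8.49 and 8.36 in WS2, with the same order and no overlap. It fell by 0.77 on the log2 scale against WS2 (SE 0.14, adjusted p = 0.00294) and was 0.52 ± 0.14 above bri1-5 (adjusted p = 0.0461). TUB1, a beta-tubulin, had 7.91, 8.05 and 8.06 in bak1-1D, 7.48, 7.75 and 7.57 in bri1-5 and 8.51, 8.79 and 8.40 in WS2. It too lay between the others, 0.41 ± 0.11 above bri1-5 (adjusted p = 0.0457) with a difference from WS2 of -0.56 ± 0.11 (adjusted p = 0.00454).

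A second set of brassinosteroid-induced genes was as low in bak1-1D as in its parent. XTH33, another xyloglucan enzyme, read 4.33, 4.11 and 4.19 in bak1-1D, 4.34, 4.37 and 4.37 in bri1-5 and 5.05, 5.22 and 4.97 in WS2. All bak1-1D arrays lay below all bri1-5 arrays, and both groups lay at least 0.5 log2 units below WS2. The difference from WS2 was -0.87 ± 0.13 (adjusted p = 6.84e-04), and that from bri1-5 was -0.15, with a 95% interval from -0.43 to 0.12. ARL, an ARGOS-like promoter of organ growth, had 7.63, 7.55 and 7.83 in bak1-1D, 7.53, 7.65 and 7.73 in bri1-5 and 8.22, 8.29 and 7.86 in WS2. Its bak1-1D and bri1-5 values overlapped, while both groups lay below all WS2 arrays. It was lower than WS2 by a difference of -0.45 ± 0.10 (adjusted p = 0.0121), a call lost without WS2 replicate 2 or bak1-1D replicate 2 (adjusted p up to 0.0658), and its difference from bri1-5 was 0.04 (95% interval -0.18 to 0.25).

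The other 2 members were not called against WS2. XTH18 read 8.51, 8.75 and 8.94 in bak1-1D, 8.16, 7.72 and 8.07 in bri1-5 and 8.84, 8.81 and 9.15 in WS2. Its bak1-1D and WS2 values overlapped, with a difference of -0.20 (95% interval -0.49 to 0.10, adjusted p = 0.404), and it was 0.75 ± 0.14 above bri1-5 (adjusted p = 0.00557). For the expansin EXPA4 the difference from WS2 was 0.14 (95% interval -0.08 to 0.35) and that from bri1-5 was 0.17 (-0.04 to 0.39).

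**Figure D2:**
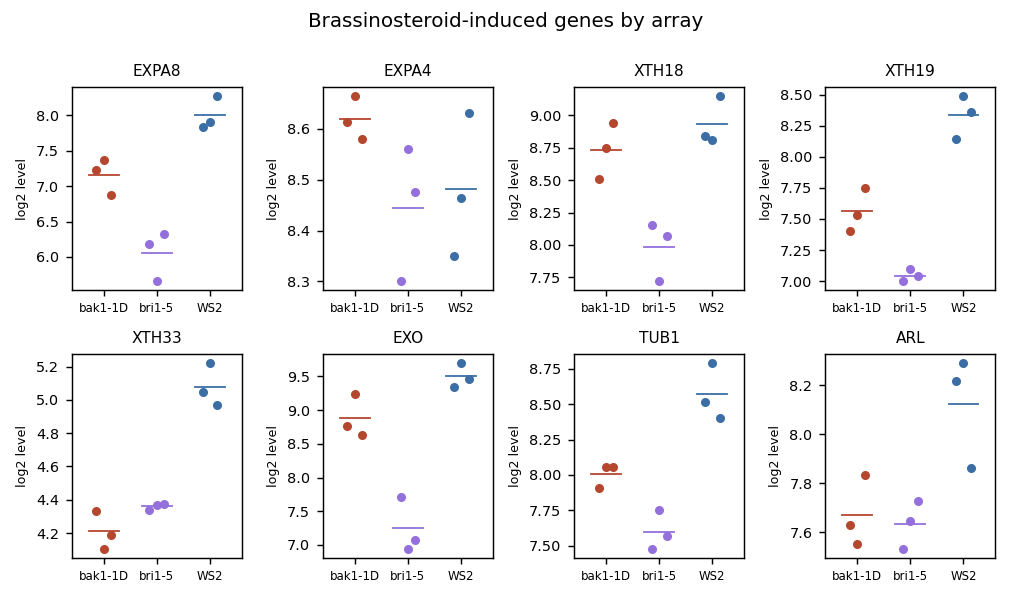
Log2 levels of the 8 tested brassinosteroid-induced genes on each bak1-1D, bri1-5 and WS2 array are shown as points, with a line at the mean of 3 arrays; each panel has its own vertical scale, which does not start at 0. In EXO, EXPA8, XTH19 and TUB1 the bak1-1D points lie between the other 2 groups, and in XTH33 and ARL they lie near bri1-5.

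The 3 tested genes of brassinosteroid perception, signalling and metabolism were not called, out of 40 signalling and 27 metabolism genes listed. BRL1, a BRI1-like receptor, differed from WS2 by 0.03 (95% interval -0.22 to 0.27) and BIM1, a bHLH partner of BES1, by 0.03 (-0.20 to 0.26). BAT1, an acyltransferase that acts on brassinosteroids, differed by -0.05 (-0.27 to 0.16). Unadjusted p-values of all 3 were above 0.05 by limma.

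Genes of the cell wall split by family, in lists that overlap with the brassinosteroid-induced one. For these and the lists that follow, the shares over all tested probe sets were 4.88% called higher and 5.14% called lower. Of 6 tested XTH genes, 3 were called lower and 0 higher, with a median difference of -0.48, and the same number was called with any 1 array left out. XTH18, XTH19 and XTH33 are described above, so XTH16 was the 1 further call. It read 5.51, 5.46 and 5.66 in bak1-1D, 5.47, 5.74 and 5.47 in bri1-5 and 6.75, 7.35 and 6.84 in WS2. The bak1-1D and bri1-5 values overlapped and all lay at least 1 log2 unit below WS2. The difference from WS2 was -1.44 ± 0.14 (adjusted p = 1.88e-05), and that from bri1-5 was -0.02 (95% interval -0.32 to 0.29).

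The 14 tested expansins, EXPA4 and EXPA8 among them, went both ways, 3 called higher and 2 lower, with a median of 0.09. EXPA20 (0.55 ± 0.10), EXPB3 (0.52 ± 0.12) and EXPA15 (0.52 ± 0.12) were higher than in WS2. The EXPB3 call was lost without WS2 replicate 1 or bak1-1D replicate 2 (adjusted p up to 0.0559), and that of EXPA15 without bak1-1D replicate 3 (0.0523). EXPA16, in contrast to EXPA8, read 5.15, 4.96 and 5.04 in bak1-1D, below both the 5.68, 5.70 and 5.68 of bri1-5 and the 5.44, 5.52 and 5.70 of WS2. Its difference was -0.50 ± 0.09 from WS2 (adjusted p = 0.00199) and -0.63 from bri1-5, while bri1-5 itself differed from WS2 by 0.13.

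Among 24 tested genes of wall polymers and proteins, 1 was called higher and 3 lower. All 4 were TRICHOME BIREFRINGENCE-LIKE genes, members of a family linked to the acetylation of wall polysaccharides. TBL36 rose by 0.58 ± 0.08 (adjusted p = 4.03e-04), and TBL45 fell by 0.89 on the log2 scale (SE 0.12). TBL26 (-0.43) and TBL30 (-0.30) were called lower too, but not with every array left out. TBL26 missed the threshold without WS2 replicates 1 or 3 or bak1-1D replicates 1 or 3 (adjusted p up to 0.13) and in a fit of the 6 arrays (0.0775). TBL30 missed it in 9 fits, among them those without any 1 of the 6 arrays compared (up to 0.113), with a variance trend (0.0589) and without the filter on low values (0.0526). Of 8 tubulins and actins 3 were lower (5.14% of all tested) and 0 higher (median -0.26). Beside TUB1 these were the beta-tubulins TUB5 (-0.49 ± 0.13) and TUB7 (-0.30 ± 0.08). Without WS2 replicate 2, WS2 replicate 3 or bak1-1D replicate 1 only 1 member of the list was called, and without brs1-1D replicate 2 there were 5. The call of TUB5 was lost without WS2 replicates 2 or 3 or bak1-1D replicates 1 or 3 (adjusted p up to 0.13), and that of TUB7 without WS2 replicates 2 or 3 or bak1-1D replicate 1 (up to 0.105).

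The largest differences from wild type lay outside these lists. AT1G14210 read 5.30, 5.36 and 5.10 in bak1-1D, 5.39, 5.11 and 5.26 in bri1-5 and 8.10, 8.14 and 8.01 in WS2. Every array of both mutant genotypes lay more than 2.5 log2 units below every WS2 array. The difference of -2.83 ± 0.12 is a 7.10-fold lower level (adjusted p = 4.72e-10), and that of bak1-1D from bri1-5 was 0.00 (95% interval -0.25 to 0.25). APL4, a large subunit of ADP-glucose pyrophosphorylase in starch synthesis, had 3.53, 3.47 and 3.32 in bak1-1D, 3.46, 3.67 and 3.37 in bri1-5 and 5.20, 5.39 and 5.43 in WS2. Its bak1-1D and bri1-5 values overlapped, near the low end of the array's scale. It fell by 1.91 on the log2 scale against WS2 (SE 0.10, adjusted p = 3.55e-09), a 3.75-fold difference. APL4 was below log2 4 on every mutant array and passed the filter only through the WS2 arrays, so its fall is a description.

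Further falls of at least 2-fold were those of AT2G39920 (-1.52), XTH16, AT1G07050 (-1.28), the jacalin-related lectin gene JAL23 (-1.27), AT4G33720 (-1.26), the thionin gene THI2.1 (-1.23), AT2G17850 (-1.12), AT3G16670 (-1.09), AT1G75880 (-1.08), AT3G19850 (-1.07), AT5G62360 (-1.01), AT3G28310 (-1.01) and AT5G25840, which read 5.16, 5.25 and 5.42 in bak1-1D against 5.98, 6.36 and 6.50 in WS2. All 15 falls were called, but THI2.1, like APL4, passed the filter only through the WS2 arrays. Those of AT2G17850 and AT5G62360 were not held with every array left out: the first missed the threshold without WS2 replicate 1 (adjusted p = 0.0503), and the other without WS2 replicate 1, bak1-1D replicate 1 or bak1-1D replicate 3 (up to 0.0775).

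The largest rise among probe sets with 1 gene was that of COR15A, which protects chloroplasts in the cold. It read 7.93, 7.92 and 7.93 in bak1-1D, 8.60, 7.08 and 7.67 in bri1-5 and 5.67, 5.65 and 6.22 in WS2. The bri1-5 arrays spread over 1.5 log2 units around the bak1-1D values, and all 6 mutant arrays lay above WS2. The rise was 2.08 ± 0.28 (4.24-fold, adjusted p = 3.33e-04). AT1G26800 rose by 1.62 ± 0.15, AT2G07240 by 1.61 ± 0.11, AT4G28140 by 1.58 ± 0.27, AT5G01740 by 1.50 ± 0.13 and AT4G33550 by 1.47 ± 0.21.

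Among the other large rises, PUB19, a U-box ubiquitin ligase, rose by 1.40 ± 0.37 and WES1, also listed as GH3.5, by 1.20 ± 0.15. WES1 joins auxin to amino acids, and its values were tight in bak1-1D, at 9.21, 9.20 and 9.18, against 9.01, 8.67 and 8.98 in bri1-5 and 7.68, 8.14 and 8.17 in WS2. All bak1-1D arrays lay above all bri1-5 arrays, but the difference of 0.31 between them was not called (adjusted p = 0.257). AT1G20070 (1.31), AT3G22570 (1.25), AT2G37870 (1.18), AT5G57785 (1.17), COR15B (1.17), AT5G53710 (1.14) and AT2G24160 (1.12) completed the 15 largest rises. The call of PUB19 was lost without WS2 replicate 2, bak1-1D replicate 1 or bak1-1D replicate 2 (adjusted p up to 0.117), and that of AT5G53710 without WS2 replicate 2 or bak1-1D replicate 1 (up to 0.0696).

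**Figure D3:**
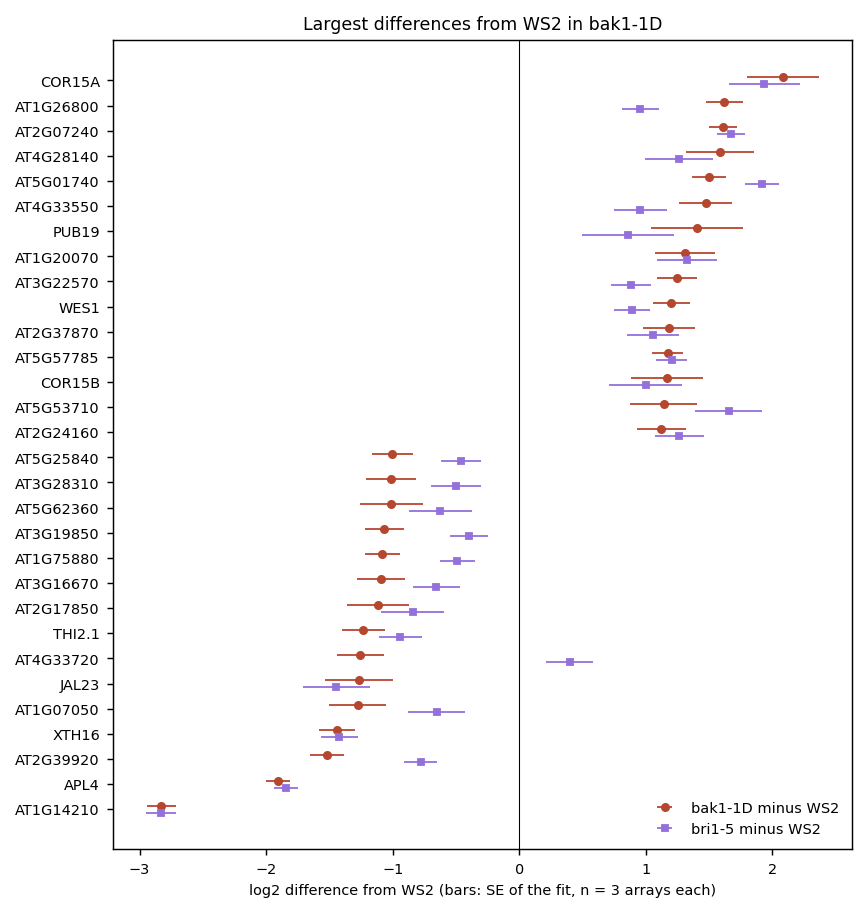
Log2 differences from WS2 are plotted for the 30 genes that rose or fell most in bak1-1D (15 each, all called) among probe sets with 1 gene, with bak1-1D as red circles, bri1-5 as purple squares and bars of 1 standard error (n = 3 arrays in each genotype). In 29 of the 30 genes both lines lie on the same side of 0, and AT4G33720 is the exception; the 2 lines share the WS2 arrays.

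Some of the large differences were of similar size in bak1-1D and in its parent. Taken as 6 in each direction, the genes with a called difference from WS2 of at least 2-fold and the smallest statistic in the direct test were AT4G32020, AT1G49000, AT5G57785, AT1G20070, COR15A and AT2G07240 among rises and AT1G14210, APL4, XTH16, JAL23, AT2G17850 and AT5G62360 among falls. They were picked for their likeness to bri1-5, so the likeness is a description. AT4G32020 read 11.09, 10.95 and 11.22 in bak1-1D, 10.99, 11.02 and 11.25 in bri1-5 and 9.86, 10.09 and 10.27 in WS2, which puts both mutant genotypes 1.01 ± 0.13 above wild type. AT2G07240 was higher than in WS2 by 1.61 in bak1-1D and by 1.67 in bri1-5. The interval of the difference between the 2 lines was widest for COR15A, from -0.45 to 0.74, and it was -0.30 to 0.17 for AT2G07240 and -0.27 to 0.27 for AT4G32020. The last 2 falls were less alike. AT2G17850 differed from WS2 by -1.12 in bak1-1D and by -0.84 in bri1-5, with an interval of -0.80 to 0.25 for the difference between the lines. AT5G62360 differed by -1.01 in bak1-1D and by -0.63 in bri1-5, where it was not called (adjusted p = 0.0944), and the interval between the lines was -0.91 to 0.14.

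A smaller group stood apart from wild type and from bri1-5 in the same direction, each by its own test. These genes were chosen by both tests, which share the bak1-1D arrays, as the 6 with the largest difference from WS2 in each direction. On the higher side they were AT1G26800, AT4G33440, WRKY53, AT1G67920, AT5G52050 and AT2G24600. On the lower side they were AT2G39920, AT4G33720, AT1G75880, AT3G19850, AT4G14480 and AT5G57760. Some of these levels were met in the other suppressor lines too, which the choice did not use. AT5G52050 averaged 6.88 in bak1-1D, 6.80 in bri1-1D and 6.87 in brs1-1D. AT1G67920 averaged 6.79 in bak1-1D, 6.56 in bri1-1D and 6.69 in brs1-1D, with overlapping bak1-1D and brs1-1D values. AT1G75880 averaged 4.59 in bak1-1D and 4.84 in brs1-1D, where replicate 2 (4.44) lay among the bak1-1D values. AT3G19850 averaged 6.19 in bak1-1D and 6.03 in brs1-1D, and AT5G57760 averaged 6.85 in bak1-1D and 6.80 in bri1-1D. The differences between suppressor lines were not tested here.

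WRKY53, a transcription factor active in leaf senescence and defence, read 9.70, 9.45 and 9.72 in bak1-1D, 8.77, 8.76 and 8.90 in bri1-5 and 9.00, 8.32 and 8.76 in WS2. The bri1-5 and WS2 values overlapped and all lay below bak1-1D. It was higher by 0.93 ± 0.22 than in WS2 (adjusted p = 0.013) and by 0.82 ± 0.22 than in bri1-5 (adjusted p = 0.042), and without WS2 replicate 2 the first was not called (adjusted p = 0.0692). AT2G24600 had 7.53, 7.51 and 7.41 in bak1-1D, 6.29, 6.37 and 6.56 in bri1-5 and 6.70, 6.58 and 6.56 in WS2, 0.87 ± 0.19 above wild type. AT5G52050, listed also as the efflux carrier DTX50, had 6.84, 7.21 and 6.58 in bak1-1D, 6.40, 5.82 and 5.98 in bri1-5 and 6.07, 5.66 and 6.28 in WS2. In both genes every bak1-1D value was above those of the other 2 groups. The rise of AT5G52050 over WS2, 0.87 ± 0.20, was lost without WS2 replicate 2 or bak1-1D replicate 2 (adjusted p up to 0.0606).

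AT1G26800 read 6.76, 6.83 and 6.82 in bak1-1D, 6.39, 5.74 and 6.30 in bri1-5 and 5.27, 5.27 and 5.01 in WS2. The 3 groups did not overlap, and bri1-5 lay between the other 2: bak1-1D was 0.66 ± 0.15 above bri1-5 (adjusted p = 0.0159), which was itself 0.96 above WS2. The same held for the fall of AT2G39920, at 3.53, 3.81 and 3.76 in bak1-1D, 4.67, 4.32 and 4.34 in bri1-5 and 5.17, 5.25 and 5.25 in WS2. It was lower in bak1-1D by a difference of -0.74 ± 0.13 from bri1-5 (adjusted p = 0.0043), and bri1-5 differed from WS2 by -0.78. AT1G75880 had 4.59, 4.79 and 4.38 in bak1-1D, 5.14, 5.18 and 5.21 in bri1-5 and 5.73, 5.49 and 5.78 in WS2, also in 3 separate steps.

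AT4G33720 was the largest of these falls against bri1-5. It had 4.82, 4.39 and 4.73 in bak1-1D, 5.97, 6.51 and 6.42 in bri1-5 and 6.10, 5.78 and 5.83 in WS2. The bri1-5 and WS2 values overlapped, and bak1-1D lay at least 0.9 below both. Its differences were -1.26 ± 0.19 from WS2 (adjusted p = 6.61e-04) and -1.65 ± 0.19 from bri1-5 (adjusted p = 1.86e-04). AT4G14480, listed also as BLUS1, a kinase of blue-light signalling in guard cells, read 4.48, 4.26 and 4.54 in bak1-1D, 4.99, 4.90 and 5.00 in bri1-5 and 5.13, 5.39 and 5.30 in WS2, in 3 steps without overlap. It differed from WS2 by -0.85 ± 0.10.

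**Figure D4:**
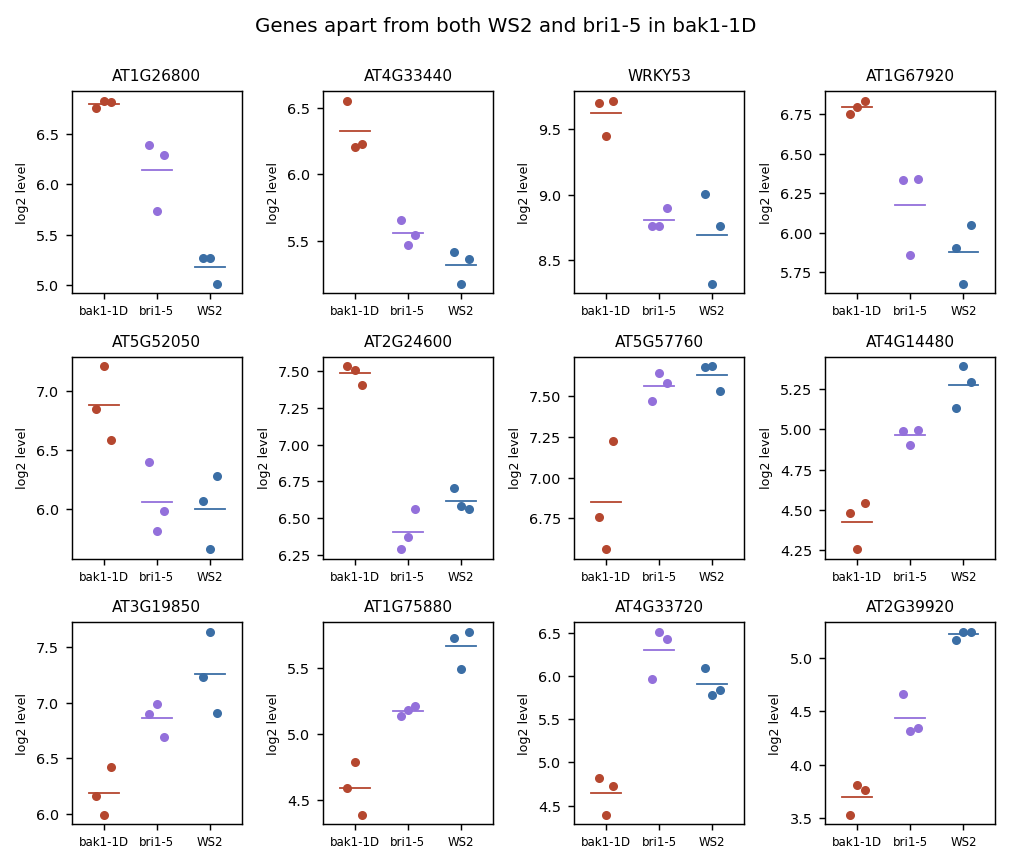
Log2 levels on each bak1-1D, bri1-5 and WS2 array are shown as points, with a line at the mean of 3 arrays, for the 12 genes called in the same direction against both other genotypes; each panel has its own vertical scale, which does not start at 0. In all 12 panels the bak1-1D points lie above or below all points of bri1-5 and WS2, as the choice of genes favours.

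Cold-regulated and abscisic acid genes were mixed. Of 72 listed genes 6 were tested, 2 called higher and 1 lower, with a median difference of 0.69. COR15A and COR15B rose. COR15B read 8.27, 8.55 and 8.43 in bak1-1D, 9.12, 7.63 and 8.00 in bri1-5 and 7.11, 7.20 and 7.45 in WS2, with all mutant arrays above wild type. Its rise of 1.17 ± 0.29 was lost without WS2 replicates 1 or 2 or bak1-1D replicates 2 or 3 (adjusted p up to 0.0606). LTI30, a dehydrin, differed by 1.02 with a 95% interval from 0.27 to 1.77 and was not called (adjusted p = 0.0798). COR27, a cold-regulated gene tied to the clock, went the other way: it read 6.51, 6.49 and 6.78 in bak1-1D, 7.58, 7.23 and 7.37 in bri1-5 and 7.10, 7.20 and 7.13 in WS2. All bak1-1D arrays were below both other groups, with differences of -0.55 ± 0.11 from WS2 (adjusted p = 0.00681) and -0.80 from bri1-5 (adjusted p = 0.00107). Without bri1-5 replicate 2, whose COR15A, COR15B and LTI30 values are the lowest of the 3 bri1-5 arrays, 5 of the 6 members were called.

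Of 26 genes listed for hypoxia, a shortage of oxygen, 8 were tested. Of these, 5 were called lower and 1 higher (5.14% and 4.88% of all tested probe sets), and the median difference was -0.60. PDC2, a pyruvate decarboxylase, had 8.94, 8.86 and 8.97 in bak1-1D, 9.06, 9.56 and 9.37 in bri1-5 and 9.45, 9.73 and 9.47 in WS2. The bak1-1D arrays lay below both groups, which overlapped each other, and the difference from WS2 was -0.62 ± 0.13 (adjusted p = 0.00775). AT1G33055 had 7.86, 7.96 and 7.42 in bak1-1D, 7.58, 7.70 and 7.60 in bri1-5 and 8.51, 8.78 and 8.01 in WS2 (-0.69 ± 0.16), with the bak1-1D and bri1-5 values overlapping. AT3G10040, also listed as HRA1, which damps the hypoxia response, differed by -0.83 ± 0.25, AT4G24110 by -0.62 ± 0.17 and AT3G27220 by -0.58 ± 0.17.

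Some of these calls were lost with 1 array left out, while that of PDC2 held in all 15 such fits. AT3G10040 was not called in 11 of the 15 fits without 1 array, all but WS2 replicate 3 of the 6 compared among them (adjusted p up to 0.19), with values below log2 4 set to 4 (0.0511), without the filter on low values (0.0519) or in a fit of the 6 arrays (0.0629). AT1G33055 was not called without WS2 replicate 2 or bak1-1D replicate 3 (up to 0.0714) or in the fit of the 6 arrays (0.0577). Only 2 members of the list were called without WS2 replicate 2 or bak1-1D replicate 3, and 3 without WS2 replicate 1, bak1-1D replicate 1 or bak1-1D replicate 2. WS2 replicate 3 had the lowest of the wild-type values for AT3G10040, AT1G33055, AT4G24110 and AT3G27220. The member that rose was AT1G72060, at 8.52, 7.83 and 8.16 in bak1-1D, 8.60, 9.17 and 8.86 in bri1-5 and 7.51, 6.98 and 6.77 in WS2. It was 1.09 ± 0.20 above wild type in bak1-1D and 1.79 above it in bri1-5.

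Starch and sugar genes had 4 of 12 tested members called lower and 1 higher, 5 calls with any 1 array left out, and a median of -0.22. Beside APL4 these were sugar transporters of the SWEET family. SWEET1 read 6.37, 6.14 and 6.32 in bak1-1D, 6.31, 6.60 and 6.51 in bri1-5 and 6.94, 6.98 and 6.99 in WS2, a fall of 0.70 on the log2 scale against wild type (difference -0.70, SE 0.13, adjusted p = 0.00335). SWEET10 (-0.52 ± 0.12) and SWEET11 (-0.46 ± 0.09) were lower too. SWEET4 was higher by 0.54 ± 0.11, from values of 4.27, 4.15 and 3.95 in bak1-1D against 3.63, 3.55 and 3.56 in WS2; with values below log2 4 set to 4 the difference was 0.14 and was not called (adjusted p = 0.454). APS3, an ATP sulfurylase of sulphate assimilation, had 7.72, 7.75 and 7.65 in bak1-1D, 6.78, 6.82 and 6.93 in bri1-5 and 8.41, 8.78 and 8.54 in WS2. Its groups did not overlap, and bak1-1D lay about midway: it was lower than WS2 with a difference of -0.87 ± 0.10 (adjusted p = 5.85e-05) and 0.86 ± 0.10 above bri1-5.

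Other hormone and defence lists gave 0 to 2 calls each. GH3.3, which like WES1 conjugates auxin, went the opposite way to it, at 7.69, 7.47 and 7.55 in bak1-1D, 7.21, 7.25 and 7.20 in bri1-5 and 7.91, 8.15 and 8.16 in WS2. It lay between the other groups, with a difference of -0.51 ± 0.09 from WS2 (adjusted p = 0.00192). These were the 2 called of 9 tested auxin genes. THI2.1 was the 1 call among 3 jasmonate genes, with 3.24, 3.19 and 3.38 in bak1-1D and 4.76, 4.07 and 4.67 in WS2. It was tested only because its WS2 values were above log2 4, so its fall is a description. EFR, the receptor of a bacterial elongation factor that works with BAK1, read 6.57, 6.14 and 6.25 in bak1-1D, 6.36, 6.43 and 6.61 in bri1-5 and 5.75, 5.44 and 5.68 in WS2. It rose by 0.70 ± 0.15 over WS2 (adjusted p = 0.00879), with bak1-1D and bri1-5 overlapping, and was the 1 call among 3 tested genes of pattern-triggered immunity. Another of them, WRKY22, differed from WS2 by 0.28 (95% interval -0.09 to 0.65). GID1B, a gibberellin receptor, was higher by 0.37 ± 0.09, a call lost without WS2 replicates 1 or 2 or any 1 of the bak1-1D arrays (adjusted p up to 0.0915).

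Among 12 cell cycle and chromatin genes 3 were called lower and 1 higher. HTB2, a histone H2B, read 6.50, 6.61 and 6.76 in bak1-1D, 6.59, 6.63 and 6.65 in bri1-5 and 7.25, 7.36 and 7.34 in WS2, with a difference of -0.69 ± 0.09 (adjusted p = 3.74e-04) and overlapping mutant groups. The mitotic kinase gene AUR1 (-0.39 ± 0.09) and the spindle checkpoint gene BUB3.1 (-0.35 ± 0.08) were lower as well, and SIM, an inhibitor of cyclin-dependent kinases, was higher by 0.39 ± 0.08. The call of AUR1 was lost without WS2 replicate 2 or bak1-1D replicates 2 or 3 (adjusted p up to 0.0695), and that of BUB3.1 without WS2 replicates 2 or 3 or bak1-1D replicates 1 or 3 (up to 0.0743). Without WS2 replicate 2 or bak1-1D replicate 3 the list had 2 calls. SPCH, the bHLH factor that starts the stomatal lineage, had 4.34, 4.22 and 4.16 in bak1-1D, 4.54, 4.54 and 4.45 in bri1-5 and 4.72, 4.82 and 4.78 in WS2. The groups did not overlap and bak1-1D was the lowest, by a difference of -0.53 ± 0.08 from WS2 (adjusted p = 0.00113). NAI1, a bHLH factor needed for endoplasmic reticulum bodies, was the other of 2 called lower among 15 bHLH genes (-0.47 ± 0.11). A count of 2 is too small to be read against the 5.14% called lower over all tested probe sets.

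**Figure D5:**
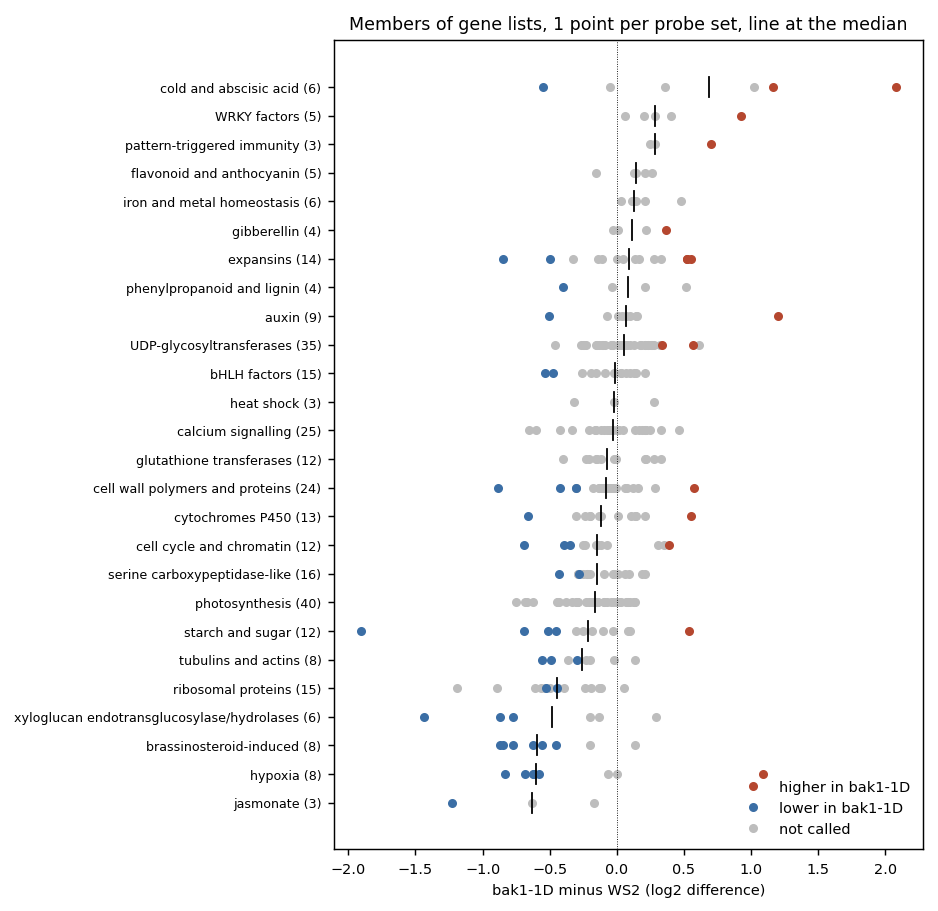
Each point is the log2 difference of bak1-1D minus WS2 for 1 probe set of a gene list, red where called higher, blue where called lower and grey where not called, with a bar at the list's median; the 26 lists with at least 3 tested members are ordered by median, and their numbers of members stand in brackets. The lists with the lowest medians are jasmonate, hypoxia, brassinosteroid-induced, xyloglucan enzyme and ribosomal protein genes, which lie mostly to the left of 0. Cold and abscisic acid genes lie mostly to the right.

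Photosynthesis genes gave 0 calls among 40 tested by limma, with a median difference of -0.16 and 2 calls without WS2 replicate 1. Members encoded in the nucleus were near 0, such as RCA, the activase of carbon fixation (0.09 ± 0.07), and LHCB4.1, a light-harvesting protein (0.08 ± 0.07). Genes encoded in the plastid lay lower. Of 69 tested plastid probe sets 68 had a difference below 0, with a median of -0.31, although 2 (2.90%) were called lower and 0 higher, and 21 had an unadjusted p under 0.05. Both calls were ribosomal protein genes, rpl36 (-0.53 ± 0.12) and rpl32 (-0.45 ± 0.13), and the second was lost without WS2 replicates 2 or 3 or any 1 of the bak1-1D arrays (adjusted p up to 0.118). Of all 15 ribosomal protein genes, 5 were called without bri1-1D replicate 3.

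The mean log2 value over the plastid probe sets was 9.70, 9.50 and 9.25 on the bak1-1D arrays, 9.66, 9.70 and 9.64 in bri1-5 and 9.79, 9.86 and 9.92 in WS2. All bak1-1D and all bri1-5 means were below all WS2 means, and bak1-1D replicate 3 was the lowest of the 9. Replicate 3 was lower still in bri1-1D, at 9.10 against 9.78 and 9.82 on its other arrays. In brs1-1D replicate 3 stood at 9.20, against 9.60 and 9.73. By the median over the plastid probe sets, bri1-5 overlapped WS2 (9.96 in bri1-5 replicate 1, 9.84 in WS2 replicate 1). The bak1-1D medians stayed below those of WS2. The plastid transcripts of an array move together, so the 69 probe sets are not independent observations. Chromosomes 1 to 5 had 8.42% to 10.9% of their tested probe sets called and medians from -0.02 to -0.01.

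Of the remaining lists with called members, UDP-glycosyltransferases had 2 of 35 higher, a share near the 4.88% of all tested probe sets. They were UGT71B6, an enzyme that glucosylates abscisic acid (0.57 ± 0.13), and UGT74F1, one that glucosylates salicylic acid (0.33 ± 0.08). The first was lost without WS2 replicate 2 or bak1-1D replicates 1 or 3 (adjusted p up to 0.0639), and the other without WS2 replicates 1 or 2 or bak1-1D replicates 1 or 2 (up to 0.079) and in a fit of the 6 arrays (0.056). Cytochromes P450 had CYP71B22 lower (-0.66 ± 0.13) and CYP71B23 higher (0.55 ± 0.17) of 13 tested, and the call of CYP71B23 was lost in 10 fits without 1 array, among them those without WS2 replicates 2 or 3 or bak1-1D replicates 1 or 3 (adjusted p up to 0.195), in a fit of the 6 arrays (0.0728) and without the filter on low values (0.0519). The peroxidase gene Prx37 of the lignin list (-0.40 ± 0.10) and AOP1 of the glucosinolate list (-0.40 ± 0.10) were lower. The call of Prx37 was lost without WS2 replicates 1 or 3 or bak1-1D replicates 1 or 3 (adjusted p up to 0.0823), and that of AOP1 without WS2 replicate 2 or bak1-1D replicate 1 (up to 0.069). Of 16 serine carboxypeptidase-like genes, the family of the suppressor BRS1, scpl48 (-0.43 ± 0.09) and scpl25 (-0.28 ± 0.09) were lower. This count is also too small to be read against the 5.14% called lower over all tested probe sets. The gene scpl25 was not called in 13 of the 15 fits without 1 array, any of the 6 compared included (adjusted p up to 0.183), in a fit of the 6 arrays (0.0671), after quantile normalization (0.0589) or without the filter on low values (0.0599). Calcium signalling had 0 of 25 called and glutathione transferases 0 of 12, both by limma. The calmodulin-like gene CML38 read 7.69, 8.41 and 7.29 in bak1-1D, 6.51, 6.28 and 6.32 in bri1-5 and 8.44, 8.36 and 8.39 in WS2. Its difference from WS2 was -0.60 (95% interval -1.07 to -0.13, adjusted p = 0.0993), and it was 1.42 above bri1-5 (adjusted p = 0.00175). The root hair markers EXPA7 (0.17, 95% interval -0.16 to 0.49) and EXPA18 (0.00, -0.30 to 0.30) were not called.

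Genes on both sides of BAK1 on chromosome 4 were examined because the suppressor is named after that locus. Within 60 protein-coding genes on each side, 48 probe sets were tested, 5 called higher and 2 lower. That is 14.6%, against 10% of all tested probe sets. The nearest gene on each side was called: AT4G33420, the gene before BAK1, was higher by 0.63 ± 0.15 (adjusted p = 0.0177), and AT4G33440, the gene after it, by 1.01 ± 0.11 (adjusted p = 2.86e-05). AT4G33440 read 6.56, 6.20 and 6.23 in bak1-1D, 5.66, 5.47 and 5.54 in bri1-5 and 5.42, 5.17 and 5.36 in WS2. It was also 0.77 ± 0.11 above bri1-5 (adjusted p = 7.73e-04), with bak1-1D above every array of the others, whereas AT4G33420 was not called against bri1-5 (0.36 ± 0.15, adjusted p = 0.22). The other rises were AT4G33550, 15 genes after BAK1, AT4G33666 (0.85) and AT4G33540 (0.28). The falls were AT4G33720, 35 genes after BAK1, and AT4G33700 (-0.42). Of these other rises and falls, only AT4G33720 was also called against bri1-5. The differences of bri1-5 itself from WS2 were 0.96 for AT4G33550, 0.37 for AT4G33666, 0.29 for AT4G33540 and -0.23 for AT4G33700.

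Among the called probe sets, 752 had no listed gene and can be given by probe set only. The largest difference of all was that of 245501_at, with 6.84, 6.88 and 7.02 in bak1-1D, 6.51, 6.81 and 6.65 in bri1-5 and 3.05, 3.24 and 3.00 in WS2. It was 3.81 ± 0.10 above WS2 (14.1-fold, adjusted p = 9.65e-13), and both mutant genotypes lay more than 3 log2 units above wild type. A pair of others was high in bak1-1D and not in its parent. The probe set 266680_s_at read 5.93, 5.87 and 4.94 in bak1-1D, 3.04, 3.16 and 3.04 in bri1-5 and 3.24, 3.45 and 3.14 in WS2, 2.30 ± 0.18 above wild type and 2.50 ± 0.18 above bri1-5. It passed the filter only through the bak1-1D arrays, with all others below log2 4, so its rise is a description. For 253338_at the values were 10.22, 9.98 and 9.87 in bak1-1D, 8.40, 8.47 and 8.41 in bri1-5 and 8.20, 8.19 and 8.14 in WS2. It was 1.84 ± 0.08 above WS2 (adjusted p = 1.14e-09) and 1.59 ± 0.08 above bri1-5 (adjusted p = 3.17e-08), while bri1-5 differed from WS2 by 0.25. The rise of 262135_at (2.21 ± 0.11) was there in bri1-5 as well (2.40). On the low side were 264319_at (-1.65 ± 0.11), 266157_at (-1.30 ± 0.14) and 262900_at (-1.14 ± 0.10), each also low in bri1-5 (-1.12, -1.31 and -1.02). Of these, 266157_at passed the filter only through the WS2 arrays and lay below log2 4 on all others. The fourth, 264525_at, read 5.75, 5.47 and 5.93 in bak1-1D, 6.69, 6.64 and 6.73 in bri1-5 and 6.58, 6.84 and 6.95 in WS2, lower in bak1-1D than in WS2 by a difference of -1.07 ± 0.12.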

How the data were processed

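Whole-seedling RNA of 5 genotypes was hybridised to ATH1 arrays, 3 biological replicates each per the series' design text. The deposited log2 values per probe set were made by the authors with GCRMA, per the submitters' processing notes, a method that subtracts background, scales arrays to each other and joins the probes of a set; its version and settings were not given in the sources used here. Replicate numbers came from titles: for bak1-1D, and likewise for brs1-1D, every description reads repeat 1, so their being separate biological samples rests on the design text. No depth stands behind array values, and the number of arrays limits the precision.

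Gene names came from the platform's table, updated through RefSeq (TAIR10.1), used for names and gene order and not for coordinates: 13513 probe sets had 1 gene (13436 matched), 503 several and 8730 none. The filter and tests follow the opening. One limma 3.58.1 model (R 4.3.3, lmFit and eBayes) took all 15 arrays, with 1 mean per genotype, and p-values were adjusted by Benjamini-Hochberg over all tested probe sets. The p-values measure the spread between arrays. The procedure was tested on simulated data. The members and the 41 gene lists were chosen with earlier results of these data known.

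Named genes were the 15 largest called rises and falls, tested brassinosteroid genes, up to 4 called members of every other list, up to 6 per direction apart from both other genotypes, up to 6 per direction most like bri1-5, and up to 4 per direction with no listed gene. EXPA16, AT4G24110, AT3G27220, SWEET11 and all members not called were named after their values were seen. Same-number arrays of bri1-5 and WS2 deviated together (correlations 0.104, 0.181 and 0.346), so that comparison was also run with the number as a block.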

Additional observations from a re-analysis of the deposited data

How the results depend on the processing

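The counts for bak1-1D against WS2 were within 1.5 times the value reported under median centring, quantile normalization, another filter, a floor at log2 4, eBayes with trend, array weights, a fit of the 6 arrays and the replicate block, with 45.9% to 52.9% of calls higher. With 1 array left out there were 828 to 1678 calls, 446 to 815 of them higher, 382 to 863 lower and 67 to 83 of at least 2-fold. The labels give same-number arrays of bak1-1D and WS2 only a shared number (deviations correlated at 0.235, -0.115 and 0.0817), and a replicate block gave 1997 calls. Replicate 3 of bak1-1D deviated together with replicate 3 of bri1-5 (0.251), bri1-1D (0.321) and brs1-1D (0.302). For replicate 2 these correlations were -0.212, -0.123 and 0.0414. Whether same-number arrays form a batch was not tested. Testing against a minimum change of 0.5 left 30 calls (23 higher, 7 lower) and 28 of at least 2-fold. For bri1-5 against WS2 the counts were 1761 to 2922 with 1 array left out, 85 with the minimum change and 3323 with the replicate block. For bak1-1D against bri1-5 they were 321 to 736, 11 and 858, and 1256 with array weights. No named call reversed its direction in the settings run. Of 82 named calls, 55 held with any 1 of the 15 arrays left out, and 14 were lost in 1 to 3 fits, 9 in 4 to 6 and 4 in more. With the block no named call was lost, and 6 plastid ribosomal protein genes, 2 photosynthesis genes and 1 calcium and 1 heat shock gene were called. GCRMA levels near the low end of the scale, as for APL4 and THI2.1, limit the sizes of those falls.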
